A study of Rattus norvegicus with 16 samples.

Results

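Nars2 and its relatives encode the mitochondrial aminoacyl-tRNA synthetases, and 8 of these genes were followed here across the left ventricles of rats that differed in inherited running capacity and in training. The genes were Nars2, Sars2, Hars2, Tars2, Iars2, Lars2, Ears2 and Yars2, whose enzymes charge mitochondrial tRNAs with asparagine, serine, histidine, threonine, isoleucine, leucine, glutamate and tyrosine. A probe set was taken as a member when the platform annotation gave it exactly 1 of these gene symbols, which gave 9 of 31042 tested probe sets for 7 of the 8 genes. Hars2 and Tars2 had 2 probe sets each, Lars2 had none, and the brighter probe set by its mean over all arrays stands for its gene. The set was put forward because of Nars2, which ranked 3 of 14217 genes by p in the training difference within the HCR line. Its values in that comparison are therefore a description.

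The 16 rats, all labelled female and about 7 months old at tissue collection, belonged to generation 16 of a pair of lines bred from N: NIH stock, with breeders chosen by treadmill capacity at about 11 weeks. The groups were HCR trained, HCR sedentary, LCR trained and LCR sedentary, with 4 rats in each, where HCR stands for High Capacity Runner and LCR for Low Capacity Runner. Trained rats ran uphill intervals for 8 weeks, in 5 sessions per week of 1.5 hours. Each line is a single selected population, so selection and drift of that population cannot be told apart. Whole ventricle was measured, in which fewer cells of a type and less RNA per cell cannot be told apart.

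A synthetase joins 1 amino acid to the tRNAs that carry it, and the mitochondrion keeps its own set, encoded in the nucleus and imported, to translate the few respiratory chain subunits encoded by mitochondrial DNA. Class II enzymes, here Nars2, Sars2, Hars2 and Tars2, and class I enzymes, here Iars2, Lars2, Ears2 and Yars2, have unrelated catalytic folds. Mitochondria lack a glutaminyl-tRNA synthetase: Ears2 first loads glutamate onto the glutamine tRNA, and an amidotransferase made of Qrsl1, Gatb and Gatc converts it. In humans, inherited defects of these enzymes cause multi-organ disease, and the heart is among the organs affected in several of them.

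RefSeq (GRCr8) gives promoters for all 8 genes, and the 250 bases before each start were searched on both strands for 5 motifs known from promoters of nuclear genes for mitochondria. The stretches below are shown because the motif found, in capitals, differed between Nars2 and 4 of its relatives: a CRE core (TGACGT, or ACGTCA) for Nars2 and ETS cores (CCGGAA, or TTCCGG) for the others. Each has 30 bases on the strand of its gene.
Nars2, chr1:160711672-160711701, plus strand: cacctagcgtgaTGACGTaggagcgcgcac
Hars2, chr18:28672695-28672724, plus strand: cctgtctgccaaCCGGAActgaggactgtc
Hars2, chr18:28672742-28672771, plus strand: ggttcggatgacTTCCGGttaccgagtccc
Hars2, chr18:28672804-28672833, plus strand: tggagaagacacTTCCGGgtcagggagcgt
Tars2, chr2:185999279-185999308, minus strand: acagcttccactTTCCGGtcaaCCGGAAcc
Iars2, chr13:99397105-99397134, minus strand: cagacttccaacCCGGAAgacctcgccctt
Sars2, chr1:93156321-93156350, plus strand: aactccagccccTTCCGGggtttctcttta
The CRE core of Nars2 began 33 bases before the start, and of 33469 rat promoters 6.95% hold this motif in the same window. ETS cores lay in 4 of the 8 member promoters, 3 of them in Hars2 and 2 in Tars2, against 12.6% of rat promoters with at least 1. CCAAT (or ATTGG) was found in 4 of 8 members and in 34% of promoters. AAGATGGC (or GCCATCTT), the core read by YY1, and GCATGCGC (or GCGCATGC), a form read by NRF1, were found in 0 of 8 members and in 1.63% and 2.2% of promoters. These matches describe letters only, and which factors bind there was not measured.

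Array correlations lay between 0.984 and 0.995, and the interquartile range of log2 values was 2.06 to 2.19 in HCR trained, 1.97 to 2.10 in HCR sedentary, 2.06 to 2.27 in LCR trained and 2.14 to 2.21 in LCR sedentary rats. The median difference between HCR and LCR sedentary rats was 0.07 over the probe sets dimmer than the median and -0.06 over the brighter ones, and between trained and sedentary HCR rats it was -0.05 and 0.04. HCR sedentary rat 5 went against its label: its 4 probe sets of Xist, a gene expressed from the inactive X chromosome of females, read 3.76 to 4.94, against 7.56 to 10.34 in the other 15 rats. Values without this array are given for the members and for each gene list that had calls. The 7 cardiomyocyte markers measured all stood at or above percentile 99.2 of the probe sets.

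Nars2, the asparaginyl enzyme, was lowest in the untrained high-capacity runners and highest in the trained ones, while the means of the low-capacity runners, trained or not, lay between them. On its probe set, trained HCR rats 3 to 6 had log2 values of 5.80, 5.95, 5.93 and 5.50. Sedentary HCR rats 3 to 6 had 5.34, 5.12, 5.00 and 5.08. Every trained HCR rat lay above every sedentary one. Trained LCR rats 1 to 4 had 5.50, 5.38, 5.62 and 5.81. Sedentary LCR rats 2, 3, 5 and 6 had 5.47, 5.68, 5.34 and 5.68. These LCR groups overlapped almost entirely, and 2 of the 4 trained HCR rats exceeded every LCR rat.

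**Figure D1:**
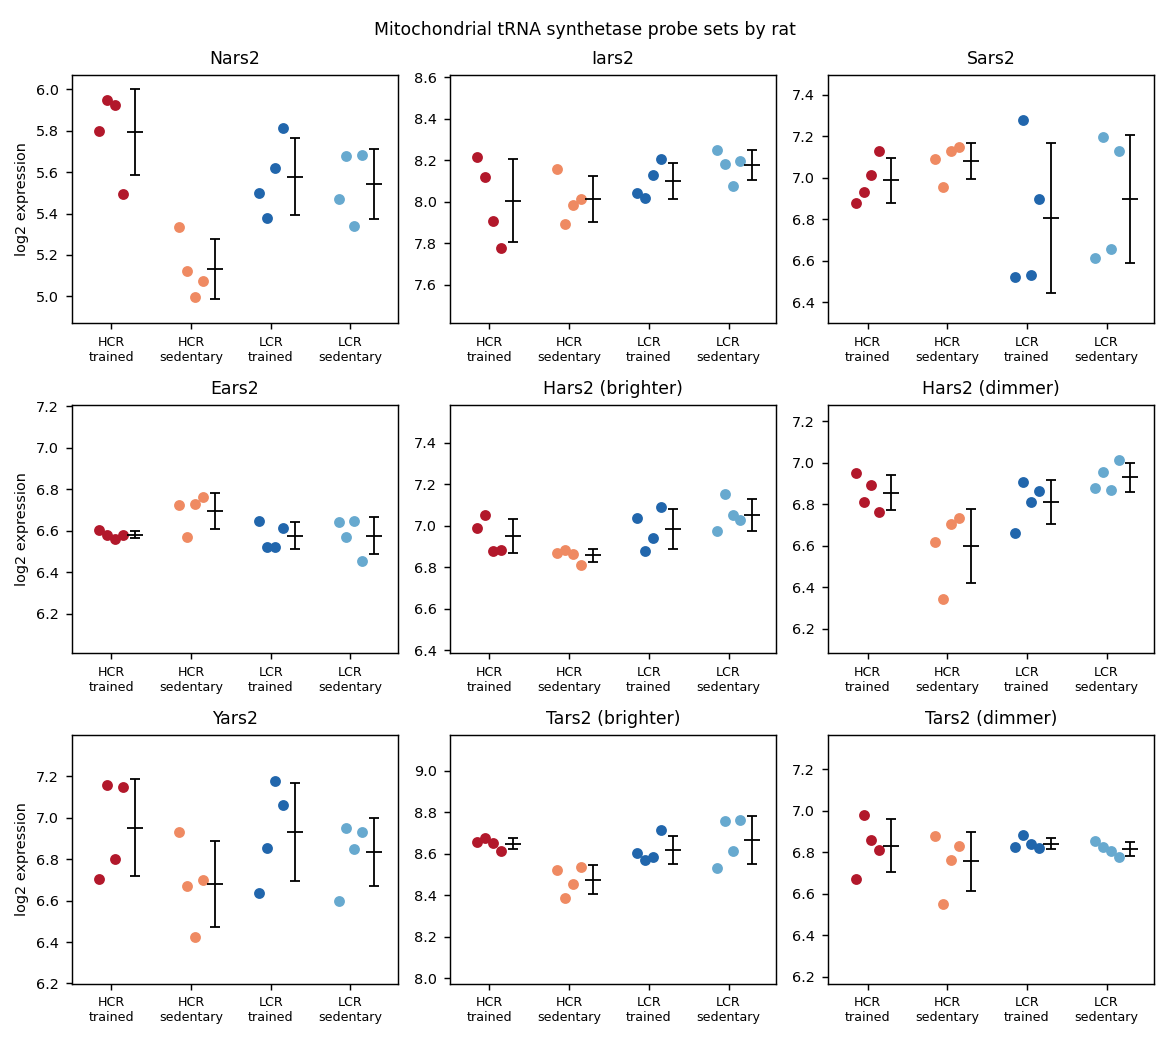
Log2 expression (y axis, the same height of scale in each panel but different levels) of the 9 probe sets in each rat by group (x axis). Points are rats in order of their number, the bar and whiskers beside them are the group mean ± SD of 4 rats. In the Nars2 panel the sedentary HCR rats sit lowest, at 5.00 to 5.34, with trained HCR rats at 5.50 to 5.95. Sars2 is the panel in which LCR rats spread most widely.

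In order of level, Nars2 averaged 5.79 ± 0.21 in HCR trained, 5.58 ± 0.19 in LCR trained, 5.54 ± 0.17 in LCR sedentary and 5.13 ± 0.15 in HCR sedentary rats (SD, n = 4 each). Neighbours in that order overlapped, apart from the last pair. Trained HCR rats were 0.66 ± 0.11 (SE) higher than sedentary ones on the log2 scale, a 1.58-fold difference with a 95% interval of 0.42 to 0.90. This is the comparison that chose the gene, and no test is attached to it. Without HCR sedentary rat 5 the difference was 0.61. In LCR rats the difference between trained and sedentary animals, which shares no array with the HCR comparison, was 0.03 with an interval of -0.21 to 0.28 (adjusted p = 0.995, limma over all probe sets). The interval leaves out the HCR value, but that value was picked for its size, so nothing is read from this.

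Among sedentary rats Nars2 was lower in HCR than in LCR by 0.41 ± 0.11 (SE), which is 1.33-fold (adjusted p = 0.0493, limma), with 4 of 4 HCR rats below 4 of 4 LCR rats. The edges of the groups all but touched, at 5.336 and 5.340. The sedentary HCR arrays are the same ones that enter the training difference, so this result is not independent of the choice of the gene. It was called in 4 of the 16 fits that left out 1 array, and without HCR sedentary rat 5 it was -0.36 (adjusted p = 0.139). Among trained rats Nars2 was 0.21 ± 0.11 (SE) higher in HCR than in LCR, with overlapping arrays (adjusted p = 0.746). The trained HCR arrays also entered the comparison that chose the gene, so this value is not independent of the choice either. The training response of HCR minus that of LCR was 0.63, with an unadjusted interval of 0.28 to 0.97, and holds the same HCR arrays. It did not pass (adjusted p = 0.475, limma). Without HCR sedentary rat 5 it was 0.58.

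Against all tested probe sets, the Nars2 difference stood at percentile 99.8 for training in HCR, 64.3 for training in LCR, 1.76 for the line difference in sedentary rats and 97.3 for the line difference in trained rats. The probe set is dim, with a mean of 5.51 over all arrays, at percentile 38.0 and below the median level of all probe sets, where log2 differences can understate changes in RNA. In 33 synthetase genes of both compartments with a probe set, Nars2 had the largest absolute difference for training in HCR and for the line difference in sedentary rats, and ranked 26 for training in LCR. Percentiles and ranks for training in HCR and for the line differences in sedentary and in trained rats use arrays that chose the gene. Nothing is read from them.

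Hars2, the histidyl enzyme, was called between the lines only on the probe set that does not stand for the gene. On its dimmer probe set sedentary HCR rats 3 to 6 had 6.62, 6.34, 6.70 and 6.73, against 6.88, 6.96, 6.87 and 7.02 in sedentary LCR rats 2, 3, 5 and 6. The groups did not overlap, and the line difference was -0.33 ± 0.08 (SE, adjusted p = 0.0360, limma), or 1.26-fold lower in HCR. Without HCR sedentary rat 5 it was -0.37 (adjusted p = 0.0743). Trained HCR rats had 6.95, 6.81, 6.89 and 6.76 on this probe set, each above every sedentary HCR rat, a difference of 0.26 (adjusted p = 0.242), or 0.29 without HCR sedentary rat 5. Trained LCR rats had 6.66, 6.91, 6.81 and 6.86 and overlapped sedentary LCR rats.

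The brighter Hars2 probe set gave the same order in sedentary rats with a smaller gap. Sedentary HCR rats 3 to 6 had 6.87, 6.88, 6.86 and 6.81, against 6.97, 7.16, 7.05 and 7.03 in sedentary LCR rats. Again no HCR rat reached an LCR rat, and the difference of -0.20 did not pass (adjusted p = 0.0650, and 0.141 without HCR sedentary rat 5). Trained HCR rats averaged 6.95 ± 0.08 and trained LCR rats 6.99 ± 0.10 (SD, n = 4 each). Over the 16 arrays both probe sets correlated at r = 0.46, but at r = -0.17 once the group means were taken out. RefSeq lists Zmat2 among the synonyms of Hars2, though Zmat2 is also the next gene with a probe set of its own, which was -0.19 in sedentary HCR minus LCR rats (adjusted p = 0.125).

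Hars1, the cytosolic histidyl enzyme, starts beside Hars2 on the opposite strand, so that their promoter windows share bases. Its line difference in sedentary rats was -0.28 (adjusted p = 0.132), and its training difference in HCR was 0.22 (adjusted p = 0.400). Neither passed, and without HCR sedentary rat 5 they were -0.20 and 0.14.

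Tars2, the threonyl enzyme, was also lowest in sedentary HCR rats, while its trained HCR rats were not the highest. On its brighter probe set trained HCR rats 3 to 6 had 8.66, 8.67, 8.65 and 8.61, against 8.52, 8.38, 8.46 and 8.54 in sedentary HCR rats. The groups did not overlap, and the difference was 0.17 (adjusted p = 0.260). Sedentary LCR rats had 8.53, 8.76, 8.61 and 8.76, which put sedentary HCR rats 0.19 lower (adjusted p = 0.0685), with 1 LCR rat inside the HCR range. Leaving out HCR sedentary rat 5 gave a training difference of 0.17 and a line difference of -0.18 (adjusted p = 0.157). Trained LCR rats lay between 8.57 and 8.72. The dimmer Tars2 probe set ranged from 6.55 to 6.98 and differed by 0.08 between trained and sedentary HCR rats and by -0.06 between sedentary HCR and LCR rats.

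Sars2, the seryl enzyme, differed from its relatives by the spread of its LCR rats. Trained LCR rats 1 to 4 had 6.52, 7.28, 6.53 and 6.90, and sedentary LCR rats 2, 3, 5 and 6 had 6.61, 7.20, 6.65 and 7.13. The 8 HCR rats kept to 6.88 to 7.15. In each LCR group 2 of 4 rats lay below every HCR rat, a count made after the values were seen. The within-group SD was 0.34 in LCR and 0.098 in HCR rats, a ratio of 3.41, at percentile 99.2 of all probe sets, where the median ratio was 1.08. Other members were uneven the other way, with ratios of 0.23 for the dimmer Tars2 probe set (percentile 0.15) and 0.49 for Iars2 (percentile 3.84). The Sars2 line difference was 0.18 in sedentary and 0.18 in trained rats (adjusted p = 0.446 and 0.882), and training went with -0.09 in either line.

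Among class I enzymes, Yars2, which charges tyrosine, averaged 6.95 ± 0.23 in HCR trained and 6.68 ± 0.21 in HCR sedentary rats (SD, n = 4 each), a difference of 0.27 with overlapping arrays (adjusted p = 0.383). Without HCR sedentary rat 5, its lowest array at 6.42, the difference was 0.18. In LCR, Yars2 averaged 6.93 ± 0.24 in trained and 6.83 ± 0.16 in sedentary rats. Iars2, which charges isoleucine, averaged 8.01 ± 0.20, 8.01 ± 0.11, 8.10 ± 0.085 and 8.18 ± 0.07 in HCR trained, HCR sedentary, LCR trained and LCR sedentary rats (SD, n = 4 each). Its line difference in sedentary rats was -0.16 (adjusted p = 0.220), and its training difference in HCR was -0.01. Ears2, which loads glutamate, went the other way from most members, with 6.58 ± 0.02 in HCR trained against 6.70 ± 0.09 in HCR sedentary rats (SD, n = 4 each). That difference of -0.12 did not pass (adjusted p = 0.388), and Ears2 was 0.12 higher in sedentary HCR than in sedentary LCR rats (adjusted p = 0.191). When HCR sedentary rat 5 was left out, the differences of the 9 member probe sets in the sedentary line comparison and in HCR training moved by at most 0.086, that of Yars2, and 0 of 9 turned sign.

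Counted over the members, 2 of 9 probe sets were called lower in sedentary HCR than in sedentary LCR rats and 0 higher, while 4.99% of all probe sets were called, 2.98% lower and 2.01% higher. Of the 9, 3 had arrays that did not overlap, all lower in HCR, against 8.08% of all probe sets. Both counts include Nars2, which was chosen through the same sedentary HCR arrays, and without it 1 of 8 probe sets was called. That 1 was the dimmer Hars2 probe set. By the probe sets that stand for genes, 1 of 7 genes was called, Nars2 itself. The median difference over the 7 genes, Nars2 among them, was -0.16, against 0.02 over all probe sets. Of the 7, 6 were at or above the median level, where the median difference was -0.06. Centring each array on its median turned the split of all calls to 298 higher and 2162 lower, against 623 and 926 as deposited. No member was called without HCR sedentary rat 5 or 4, or without LCR sedentary rat 3, 5 or 6. The share of all probe sets called was then 0.361% and 0.332%, or 1.05%, 1.07% and 0.113%, so that a count of 0 of 9 was close to the share over all probe sets.

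In the other comparisons 0 of 9 member probe sets were called by limma. For training in HCR 0% of probe sets were called, and 3 of 9 members had an unadjusted p under 0.05, against 13.9% of all probe sets. Trained and sedentary HCR arrays did not overlap for 3 of 9 members, all higher in trained rats, against 3.78% of all probe sets, and nothing is read from this since the comparison chose Nars2. For training in LCR 0.00322% were called, and 0 of 9 members had an unadjusted p under 0.05, against 5.57% of all probe sets. The line difference in trained rats had 0.0966% called and 0 of 9 members under that p, against 7.33%. Over both training states 3.84% were called for the line difference, 2.39% lower, and 3 of 9 members had an unadjusted p under 0.05, against 24.1%. For training over both lines 0.00644% were called and 1 of 9 members, Nars2 itself, was under that p, against 9.24%. For the training response of HCR minus that of LCR 0% were called and 3 of 9 members were under it, against 9.88%. Nars2, chosen through the same HCR arrays, is among them, as it is in the count for training in HCR. Nothing is read from the counts that hold it.

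**Figure D2:**
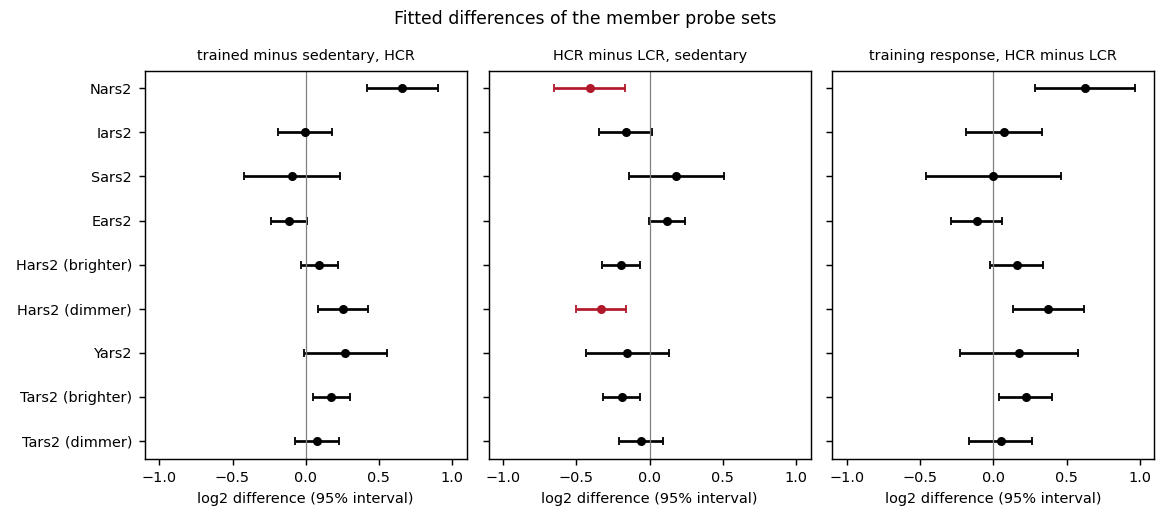
Fitted log2 difference (x axis) with its 95% interval for each member probe set (rows), for trained minus sedentary HCR rats, for sedentary HCR minus sedentary LCR rats, and for the training response of HCR minus that of LCR. Red marks an adjusted p of 0.05 or less, reached by Nars2 at -0.41 and the dimmer Hars2 probe set at -0.33 in sedentary rats.

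The gene lists that follow are set against all probe sets, of which 2.98% were called lower and 44.4% lay below 0 in sedentary HCR minus LCR rats. Among probe sets at or above the median level, where most of the listed genes lie, 63.4% were below 0. The remaining mitochondrial synthetases with a probe set, Aars2, Cars2, Fars2, Rars2, Vars2 and Wars2, gave 0 of 6 called in any comparison. In sedentary rats 5 of 6 had a line difference below 0, with a median of -0.20, led by Vars2 (valine) at -0.26 (adjusted p = 0.0879) and Fars2 (phenylalanine) at -0.21 (adjusted p = 0.147). Vars2 was also 0.32 higher in trained than in sedentary HCR rats, with arrays that did not overlap (adjusted p = 0.214). Gars1 and Kars1, which serve both cytosol and mitochondria, had line differences of -0.10 and -0.14 in sedentary rats, and neither was called.

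Of 18 cytosolic synthetases 16 were below 0 in sedentary HCR minus LCR rats, and 12 without HCR sedentary rat 5. With all arrays 1 was called lower in sedentary HCR rats. It was Lars1, the leucyl enzyme that also senses leucine for mTORC1, at -0.30 ± 0.07 (SE, adjusted p = 0.0285), and it was called over both training states as well (-0.25, adjusted p = 0.0130). Nars1, the cytosolic counterpart of Nars2, differed by -0.04 between the lines in sedentary rats and by 0.05 between trained and sedentary HCR rats. Across the 33 synthetase genes 28 were below 0 in sedentary HCR minus LCR rats and 27 were above 0 in trained minus sedentary HCR rats, comparisons that share the sedentary HCR arrays. Of the 33, 31 were at or above the median level, where 61.5% of probe sets were above 0 for training in HCR, against 45.6% of all. The counts were 25 below 0 and 26 above 0 without HCR sedentary rat 5. In LCR, 16 of 33 were above 0 for training. Of the 3 scaffold genes of the cytosolic synthetase complex 0 were called, with Aimp1 at -0.34 (adjusted p = 0.0923) and Eef1e1 at -0.17 in sedentary rats.

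The amidotransferase that finishes the work of Ears2 had 1 of 3 subunit genes called lower in sedentary HCR rats, Gatc at -0.26 ± 0.07 (SE, adjusted p = 0.0398). Qrsl1, its catalytic subunit, was at -0.28 in that comparison (adjusted p = 0.0502), and it was called over both training states at -0.22 (adjusted p = 0.0432), though not without HCR sedentary rat 5 (-0.21, adjusted p = 0.0875). Second probe sets of both genes were closer to 0, at -0.11 for Gatc and 0.07 for Qrsl1 in sedentary rats.

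Among 17 genes that process or modify mitochondrial tRNA, 14 were below 0 in sedentary HCR minus LCR rats, with a median of -0.07, and 2 were called lower. They were Mtfmt, which formylates the initiator methionyl-tRNA, at -0.34 (adjusted p = 0.0303) and Trit1, which isopentenylates an adenosine of some tRNAs, at -0.23 (adjusted p = 0.0493). Of 15 mitochondrial translation factors and mRNA-binding proteins 14 were below 0, with a median of -0.09, and 3 were called lower. These were Mtif2, the initiation factor that brings in the formylated tRNA, at -0.42 (adjusted p = 0.0400), Ptcd3, of the small ribosomal subunit, at -0.39 (adjusted p = 0.0485), and Slirp, the partner of Lrpprc on mitochondrial mRNA, at -0.38 (adjusted p = 0.0481). Mtif2 was also 0.47 higher in trained than in sedentary HCR rats, without overlap (adjusted p = 0.163). A second Slirp probe set differed by -0.04 between the lines.

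Of 11 genes that copy and transcribe mitochondrial DNA, which yields the tRNAs these enzymes charge, 10 were below 0 in sedentary HCR minus LCR rats, with a median of -0.20, and 3 were called lower. Tfb2m, which opens the promoter for the mitochondrial RNA polymerase, was at -0.48 ± 0.10 (SE, adjusted p = 0.0233), Mgme1, an exonuclease of replication, at -0.35 (adjusted p = 0.0356), and Tfam, which packages the DNA and starts transcription, at -0.27 (adjusted p = 0.0404). Over both training states Tfb2m (-0.36), Tfam (-0.22) and the elongation factor Tefm (-0.18) were called lower in HCR, at adjusted p of 0.0128, 0.0258 and 0.0446. Tfb2m alone of these was called without HCR sedentary rat 5 (-0.37, adjusted p = 0.0202), and Tfam and Tefm were not (adjusted p = 0.0579 and 0.0899).

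The ATF4 branch of the integrated stress response, which is known to answer faults of mitochondrial translation, had 0 of 17 genes called in any comparison. In sedentary rats 11 of 17 were above 0 in HCR minus LCR, with a median of 0.07, and Cebpb at -0.50 (adjusted p = 0.127) and Ddit3 at -0.32 (adjusted p = 0.216) were the largest differences. Atf4 itself differed by -0.08. These values were -0.46, -0.24 and -0.02 without HCR sedentary rat 5. Between trained and sedentary HCR rats the list had a median of -0.01.

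**Figure D3:**
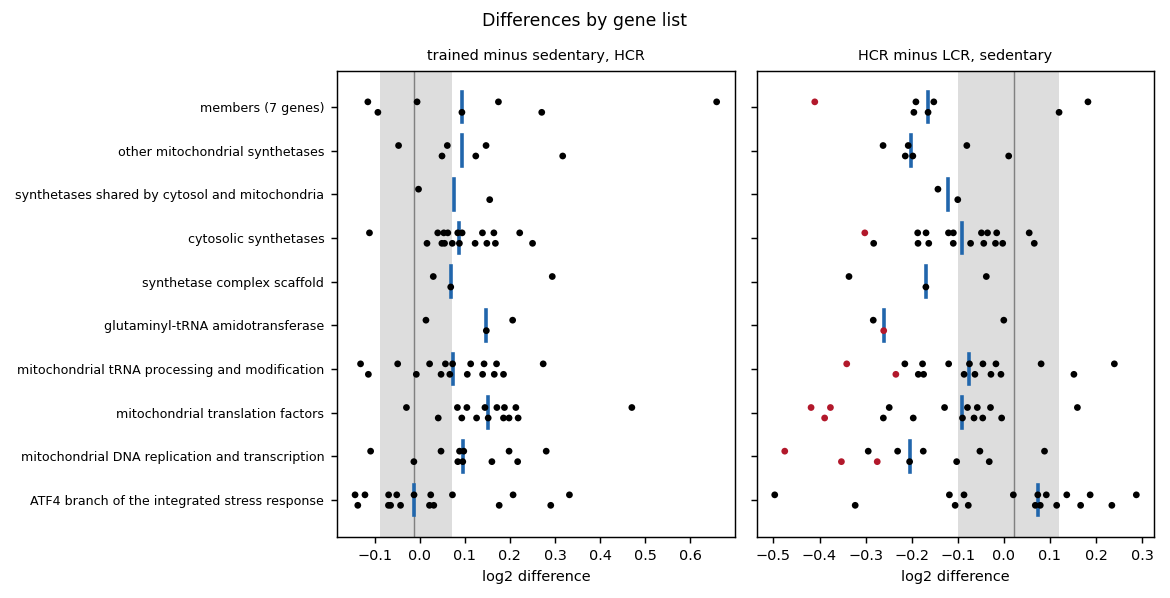
Log2 differences (x axis) of single genes, as dots, by gene list (rows), for trained minus sedentary HCR rats and for sedentary HCR minus sedentary LCR rats. Blue bars are list medians, the grey line and band are the median and the interquartile range of all probe sets, and red dots have an adjusted p of 0.05 or less. The dot far right among trained minus sedentary HCR differences is Nars2 at 0.66.

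The list counts for sedentary rats changed when 1 array was left out, as did the share of all probe sets called, which was 4.99% with all arrays. That share was 0.361% without HCR sedentary rat 5, and the genes called numbered 1 in the list of mitochondrial DNA genes, which was Tfb2m (-0.51, adjusted p = 0.0496), and 0 in the cytosolic synthetases, amidotransferase, tRNA modification and translation factor lists. The list genes called with all arrays then kept their sign, and their log2 differences changed by a factor of at most 1.13, the most for Tfam. The genes below 0 numbered 12 of 18 for cytosolic synthetases and 13 of 17 for tRNA modification. They numbered 14 of 15 for translation factors and 8 of 11 for mitochondrial DNA. In that order the list medians were -0.08, -0.09, -0.11 and -0.11, against -0.09, -0.07, -0.09 and -0.20 with all arrays. Without HCR sedentary rat 4 or without LCR sedentary rat 6 the count called was 0 in each of the 5 lists, at 0.332% and 0.113% of all probe sets. Quantile normalization of the summarised values also left 0 in each, at 1.75% of all probe sets. Over both training states, leaving out HCR sedentary rat 5 took the share of all probe sets called to 1.7%, against 3.84% with all arrays. Lars1 was still called there (-0.24, adjusted p = 0.0299).

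Markers of other cells moved in some of the same comparisons. The mean log2 level of 8 of 8 fibroblast markers ran from 8.66 to 8.91 in sedentary HCR rats and from 8.91 to 9.10 in sedentary LCR rats, that of 6 of 8 nerve and Schwann cell markers from 5.84 to 5.94 and from 5.61 to 5.72, and that of 7 of 8 adipocyte markers from 6.42 to 6.53 and from 6.33 to 6.40. Of 8 smooth muscle and pericyte markers 8 were above 0 in sedentary HCR minus LCR rats, against 55.6% of all probe sets. Acta2, the smooth muscle actin (0.35, adjusted p = 0.0421, limma), and Notch3, a receptor of mural cells (0.34, adjusted p = 0.0360), were called higher, against 2.01% of all probe sets. Without HCR sedentary rat 5 the probe sets called higher fell from 623 to 26, and these markers were not followed there. The list's mean overlapped, at 7.23 to 7.44 in HCR and 7.09 to 7.31 in LCR. The mean of 7 of 8 lymphocyte markers ran from 5.60 to 5.905 in trained HCR and from 5.91 to 6.14 in trained LCR rats, a comparison with 0 members called. The mean of 7 of 8 cardiomyocyte markers ran from 13.53 to 13.63 in trained and from 13.48 to 13.52 in sedentary HCR rats. Their part in the synthetase differences was not tested.

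The genes whose profile over the 16 arrays was most like that of Nars2, by Pearson's r among 9488 genes whose brightest probe set had a mean at or above the median of all probe sets, were Bltp1 (r = 0.914), Zbtb20 (0.901), Zfp704 (0.883), Fbxo7 (0.879) and Dst (0.876). Once group means were removed, r was 0.82 for Bltp1, 0.80 for Zbtb20, 0.60 for Zfp704, 0.69 for Fbxo7 and 0.79 for Dst. All were higher in trained than in sedentary HCR rats, by 0.20 for Fbxo7 to 0.53 for Zbtb20, and their LCR training differences were between -0.01 and 0.10. The ranking uses the pattern Nars2 was chosen for, and the arrays share their normalization. Leaving out HCR sedentary rat 5 gave r between 0.847 for Zfp704 and 0.894 for Zbtb20. None of the 5 is a synthetase. Among the members Tars2, on its brighter probe set, was nearest to Nars2, with r = 0.80 over the arrays and 0.64 without group means.

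**Figure D4:**
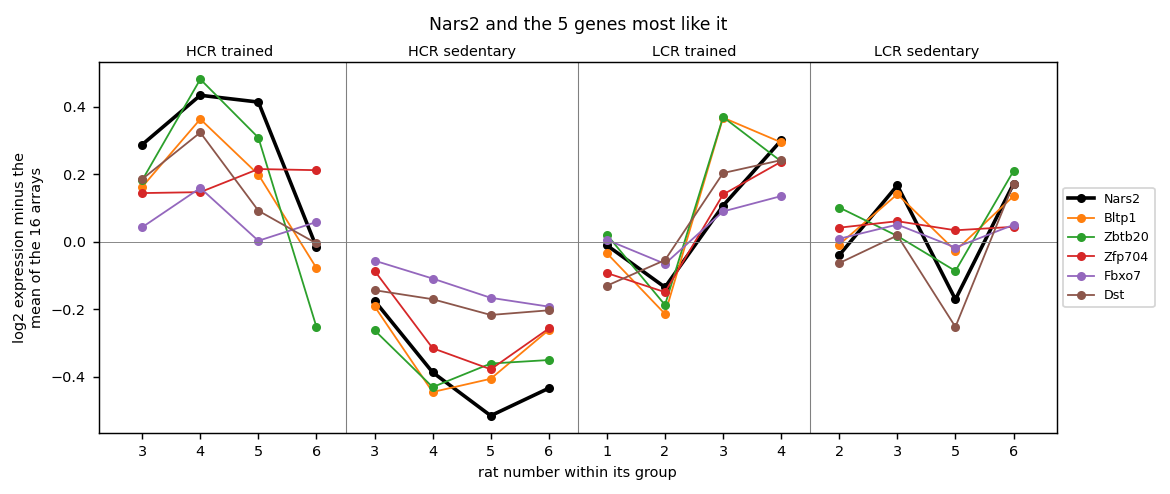
Log2 expression minus the mean of the 16 arrays (y axis) in each rat (x axis, grouped) for Nars2, in black, and the 5 genes most like it. Nars2 and all 5 lie below their means in the 4 sedentary HCR rats, where Nars2 has its lowest array.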

How the data were processed

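The deposited values are log2 expression values, 1 array (Affymetrix RAE) per rat, which the authors made with RMA, as the submitters' processing notes and the design text state. That the base is 2 was inferred from the range of 3.24 to 14.54, since no source used here names it. Another base would change fold sizes only. Of 31099 probe sets 57 Affymetrix controls were left out, with no filter on low signal. All 31042 others were fitted with limma 3.58.1 in R 4.3.3 on all 16 arrays, with 1 mean per group and 12 residual degrees of freedom. The fitting code was tested on simulated data with known changes in sedentary HCR rats. P-values were adjusted by Benjamini-Hochberg over all probe sets of a comparison and called at 0.05 or less, two-sided. The number of arrays limits the precision.

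Samples were grouped by their titles. Symbols came from the platform annotation: 20826 probe sets had 1, 436 several and 9780 none. The 10 gene lists, the members being 1 of them, and the 10 marker lists were chosen with earlier results of these data known. From each list the text names up to 4 called genes, otherwise those of largest difference, with a few others picked after their values were seen. Promoters were RefSeq's for GRCr8, read with Python 3.11.15. Alternatives covered scaling, a brightness filter, 1 probe set per gene, the variance model, the arrays fitted, a replicate block and each array left out. Deviations of the 16 same-numbered pairs of arrays correlated at -0.23 to 0.34, and 6 exceeded 0.1. Their median was 0.035, against -0.0064 for other pairs of arrays from different groups. The rat numbers were not taken to pair the animals, and whether they do was not settled by these values.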

Additional observations from a re-analysis of the deposited data

How the results depend on the processing

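The Nars2 line difference in sedentary rats kept its direction under each alternative. It was -0.48 and no longer called after quantile normalization of the summarised values (adjusted p = 0.0573), and ran from -0.48 to -0.36 with 1 array left out. The member probe sets called there were 2 as reported, 4 with arrays centred, 0 after that normalization, 1 with the brightness filter, which removes Nars2 itself, 1 with 1 probe set per gene, and 0 to 2 with 1 array left out. For training in HCR they were 0, and 0 to 1 with 1 array left out, the 1 being Nars2 without HCR trained rat 6. The Nars2 difference there ran from 0.61 to 0.76, and since this comparison chose Nars2, nothing is read from that count. With the replicate block Nars2 was -0.49 in sedentary HCR minus LCR rats (adjusted p = 0.0286) and 0.66 for training in HCR, with no change of its calls. LCR trained rat 1 shares its number with no other rat and adds nothing to that fit. By the numbers alone, 5 of 15 arrays correlated best with their own number.

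Differences near 0 turned sign. With the replicate block these were Nars2 (-0.019) and Sars2 (0.052) for training in LCR, Hars2, dimmer probe set (-0.035), Yars2 (-0.14) and Tars2 (-0.017) between trained lines, and brighter Hars2 for training over both lines (-0.017). With arrays centred they were Ears2 between trained lines (-0.0050), Iars2 for training in HCR (0.030) and Sars2 in the difference of training responses (0.046). After quantile normalization they were Ears2 for training in LCR (0.0051) and Iars2 in the difference of training responses (-0.025). With 1 array left out, the ranges across 0 were -0.045 to 0.10 for Nars2, -0.25 to 0.0080 for Sars2 and -0.043 to 0.022 for Ears2 for training in LCR, -0.077 to 0.070 for Iars2 for training in HCR, -0.012 to 0.030 for Ears2, -0.0054 to 0.076 for dimmer Hars2, -0.078 to 0.10 for Yars2 and -0.060 to 0.042 for dimmer Tars2 between trained lines, -0.10 to 0.0076 for dimmer Tars2 between sedentary lines, -0.0036 to 0.032 for brighter Hars2 for training over both lines, and -0.00027 to 0.15 for Iars2, -0.10 to 0.16 for Sars2 and -0.018 to 0.10 for dimmer Tars2 in the difference of training responses. The causes were not tested. Nars2 is the dimmest member, and how near its signal lies to background was not measured.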

Other observations

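The 8 measured genes that flank Nars2 in RefSeq order on GRCr8 were read beside it. Ddias, Prcp, Fam181b and Tenm4 lie before it and Gab2, Usp35, Alg8 and Ndufc2 after it, and 0 of 8 were called between the lines in sedentary rats. Tenm4, a synaptic adhesion protein, was 0.21 higher in sedentary HCR than in sedentary LCR rats (adjusted p = 0.114, limma) and Ddias 0.19 higher (adjusted p = 0.0920), opposite to Nars2 at -0.41. Tenm4 and Ddias were dim, with means of 5.62 and 4.06. Probe sets dimmer than the median had a median difference of 0.07 in this comparison. Between trained and sedentary HCR rats Ddias was at -0.19 and Tenm4 at -0.20. Without HCR sedentary rat 5 the line differences were 0.20 for Ddias and 0.25 for Tenm4. Ndufc2, a subunit of respiratory complex I, was at -0.12 in sedentary HCR minus LCR rats (adjusted p = 0.204) and at 0.04 for training in HCR.

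Vars1, the cytosolic valyl enzyme, gave the largest line difference of the cytosolic synthetases in trained rats, 0.36 higher in HCR than in LCR, with arrays that did not overlap (adjusted p = 0.270), against -0.0025 in sedentary rats. It was picked out after its values were seen, and the difference between these line differences did not pass (0.36, adjusted p = 0.480).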
